A study of Caenorhabditis elegans with 2 samples.

Results

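The 8 genes described here encode translation elongation factors of Caenorhabditis elegans, mitochondrial ones not included, and its eIF5A proteins. They are eef-1A.1, eef-1A.2, eef-1B.1, eef-1B.2, eef-1G, eef-2, iff-1 and iff-2, taken by symbol from 19973 nuclear protein-coding genes, and all 8 were found in the annotation. They had been picked on the signal of the strongest peaks in these same lists, with the values of iff-2, eef-1A.1, eef-2 and eef-1G known, so the levels are a description and carry no test. For each gene, all peak summits were read from 1000 bp upstream of its most upstream annotated 5′ end to the end of the gene.

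The peaks come from chromatin immunoprecipitation with sequencing of ZFP-2, a C2H2 zinc finger protein, in whole hermaphrodites. Strain OP534 carries the unc-119(tm4063) mutation on chromosome III and the insertion wgIs534, which expresses ZFP-2 with a C-terminal GFP-FLAG tag, and an anti-GFP antibody was used. Animals were L4 larvae taken 52 hours after synchronisation from starved L1 larvae. The design is 1 group of 2 biological replicates with no second condition, and both carry the same transgene. Whole animals mix all tissues, so a site bound in few cells and a site bound weakly in many cannot be told apart.

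In elongation, eEF1A delivers aminoacyl-tRNA to the ribosome as a GTP-bound protein. The eEF1B complex recharges eEF1A with GTP, with eef-1B.1 and eef-1B.2 encoding exchange subunits and eef-1G the gamma subunit. eEF2 moves the ribosome along the mRNA, and eIF5A, which carries the modified amino acid hypusine, relieves stalled ribosomes. In C. elegans, iff-1 is known for its role in the germ line and iff-2 for its role in somatic tissue. The promoter of eef-1A.1, formerly eft-3, is widely used to drive transgenes in most tissues.

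The sequences below show the upstream DNA of the eIF5A and eEF1A paralogues, which differ most in peak signal, and of eef-1G. They are read from the RefSeq WBcel235 assembly, which has the sequence of ce11, and run 5′ to 3′ on the strand of each gene. Capitals mark 8 words of 6 bases, or their reverse complements. Those of iff-2 (chrII:8561368-8561527, minus strand), iff-1 (chrIII:9747194-9747353, minus strand) and eef-1G (chrV:10965559-10965718, plus strand) are the 160 bp that end 1 bp before the 5′ end. The others are the 160 bp around the summit, for eef-1A.1 chrIII:6972011-6972170 on the minus strand and for eef-1A.2 chrX:7823224-7823383 on the plus strand.
iff-2: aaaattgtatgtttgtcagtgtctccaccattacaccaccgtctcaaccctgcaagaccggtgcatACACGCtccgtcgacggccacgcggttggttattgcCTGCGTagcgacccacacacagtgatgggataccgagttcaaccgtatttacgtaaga
iff-1: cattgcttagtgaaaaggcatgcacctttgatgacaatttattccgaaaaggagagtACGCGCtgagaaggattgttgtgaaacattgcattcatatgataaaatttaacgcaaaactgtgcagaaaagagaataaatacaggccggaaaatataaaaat
eef-1A.1: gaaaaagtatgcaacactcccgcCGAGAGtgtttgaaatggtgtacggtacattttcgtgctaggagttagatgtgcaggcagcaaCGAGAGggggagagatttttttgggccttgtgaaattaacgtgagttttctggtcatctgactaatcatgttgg
eef-1A.2: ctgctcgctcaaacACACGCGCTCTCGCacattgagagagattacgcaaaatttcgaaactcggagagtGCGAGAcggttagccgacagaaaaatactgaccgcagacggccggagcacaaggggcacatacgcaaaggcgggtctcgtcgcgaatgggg
eef-1G: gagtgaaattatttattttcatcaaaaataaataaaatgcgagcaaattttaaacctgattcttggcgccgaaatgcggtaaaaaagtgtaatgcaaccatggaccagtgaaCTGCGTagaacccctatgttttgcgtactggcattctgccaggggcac

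The authors' thresholded list held 642 nuclear peaks, the pooled list 14640, and the lists of replicates 1 and 2 held 18182 and 17758 with background calls included. Each of the 642 was found among the pooled peaks, its interval and signal being identical there. Ranks given here are among nuclear peaks of the list named. With 18 mitochondrial peaks the thresholded list held 660. Cuts to a number of strongest peaks were made with mitochondrial peaks counted, and the nuclear ones were then kept. The signal is the authors' value for a peak, its scale is not given in the sources used here, and read depth is unknown. Of the 642 peaks, 510 (79.4%) had the same width of 436 bp, and in 509 of these the summit stood at the midpoint, so the position of such a summit is coarse.

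Thresholded summits lay in the searched region of 6 of the 8 genes, where 3.29% of all nuclear protein-coding genes had one. All 6 summits lay in a promoter window, 1000 bp upstream to 200 bp downstream of a 5′ end, against 2.79% of all genes. As the genes were picked with these peaks known, nothing is read from these shares. The 6 were iff-2, eef-1A.1, eef-2, eef-1G, eef-1A.2 and eef-1B.1, in order of signal, while iff-1 and eef-1B.2 had none. The order of all 8 was the same in the pooled list and in the list of each replicate. The pooled list was made from both replicates, so its order is not separate from theirs. Signals were not compared between the replicate lists, whose medians differ (15.4 and 19.8). Near the threshold, eef-1B.1 had a signal of 103 and iff-1 a pooled signal of 65.8, on either side of the weakest thresholded peak at 83.8.

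Other ways of choosing peaks changed the 6 at their edges. Among the 330 strongest thresholded peaks 5 of the 8 genes had a summit in the searched region (1.75% of all genes) and the same 5 in a promoter window (1.57%), eef-1B.1 being lost. The 300 strongest pooled peaks, a tighter cut of the same ranking, gave 5 (1.62%), also without eef-1B.1. Among the 1320 strongest pooled peaks, a looser cut of that ranking, there were 7 (6.2%), iff-1 being added. These changes follow from the ranks of eef-1B.1 and iff-1 given below. When a peak counted for 1 gene alone, the one with the closest 5′ end, 5 remained (1.91%), eef-1A.1 being lost. With replicate 1 left out the same 6 had a summit in the searched region (3.3%) and in the promoter window (2.74%), and with replicate 2 left out likewise (3.31% and 2.81%). They were also the same 6 with 500 bp (2.72%) or 2000 bp (4.09%) upstream, with any overlap of a peak (3.73%), and with a window of 500 bp up and 100 bp down (2.13%).

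**Figure D1:**
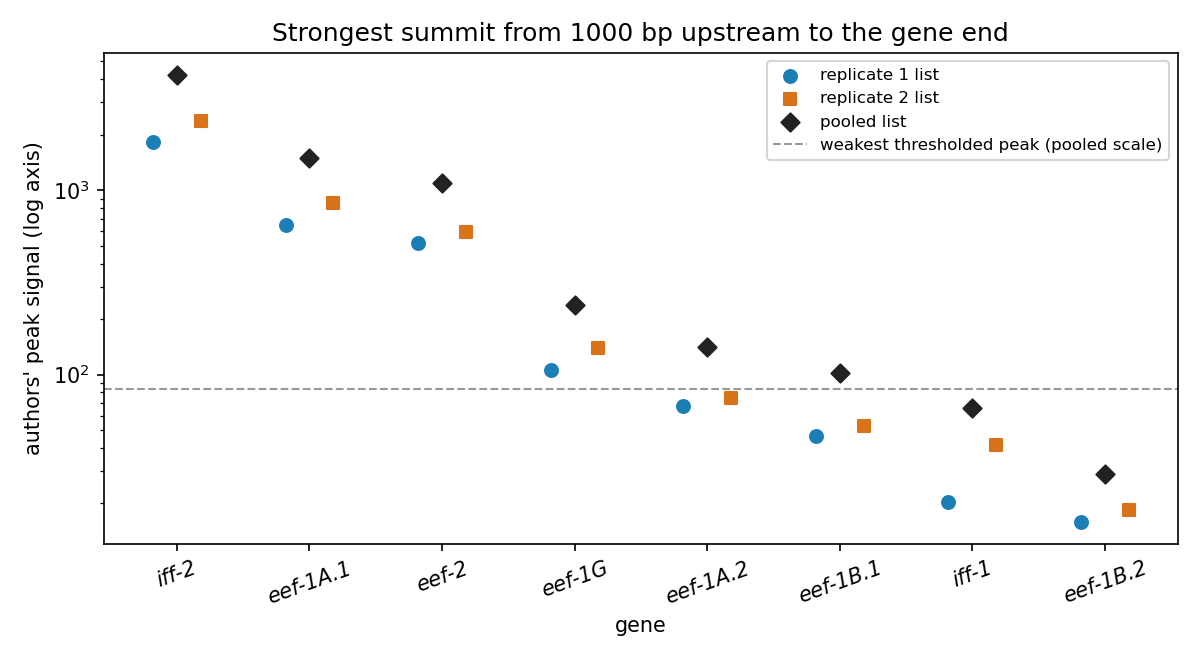
Authors' peak signal (log axis) of the strongest summit from 1000 bp upstream to the gene end for each of the 8 genes, in the replicate 1 list (circles), the replicate 2 list (squares) and the pooled list (diamonds). The dashed line is the weakest thresholded peak, 83.8, which applies to the pooled values, and iff-2 stands highest in each list with 1831, 2389 and 4206.

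The eIF5A genes gave the widest contrast. iff-2 (WBGene00002065, chromosome II from 8559375 to 8561367, minus strand, ce11) had a peak from 8561150 to 8561702 with pooled signal 4206, rank 2. Its signal was 1831 in replicate 1, rank 3, and 2389 in replicate 2, rank 2. The summit at 8561435 lay 68 bp upstream of the 5′ end, and the summits of the replicates were 1 bp apart. Over 607 thresholded peaks with a summit within 100 bp in both replicates, the median separation was 20 bp, and 91.8% were farther apart than those of iff-2. Among the 25 strongest of these the median was 5 bp, with quartiles of 2 and 12 bp, so a small separation is usual for strong peaks. Separations were 12 bp at eef-1A.1 and eef-2, 35 bp at eef-1B.1, 43 bp at eef-1G, 44 bp at iff-1 and 47 bp at eef-1A.2. The iff-2 peak was 553 bp wide, above the commonest width. F54C9.14, the next gene upstream, has its nearest 5′ end 867 bp from the summit.

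iff-1 (WBGene00002064, III from 9745862 to 9747193, minus strand) had 1 call in each of the pooled and replicate lists and none in the thresholded list. Its pooled signal was 65.8, rank 1084, with 20.3 in replicate 1, rank 3833, and 41.4 in replicate 2, rank 987. The replicates thus place this call differently, among the top 5.56% of nuclear calls in replicate 2 and the top 21.1% in replicate 1. The deposited −log10 q-value was 1.96 in the pooled list, the highest value there, shared with 1217 other nuclear calls. It was 0.57 in replicate 1, where the highest value was 2.04, and 1.71 in replicate 2, where the highest was 1.73. The pooled summit at 9747089 stood in a coding exon, 104 bp downstream of the 5′ end and 383 bp from that of cdk-1, a cell cycle kinase gene on the other strand.

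Within a list, the iff-2 signal was 63.9 times that of iff-1 in the pooled list, 90.2 times in replicate 1 and 57.6 times in replicate 2. The coding sequences of the genes are alike at 79.5% of 482 aligned bases and share 0 runs of 30 bases. The printed upstream sequence of iff-2 contains its summit and holds the reverse complement of ACGCAG, and ACACGC. That of iff-1 holds ACGCGC but does not contain its summit, which lies inside the gene, so the pair are not like for like. At the iff-1 summit the words were CGAGAG, centred 8.5 bp from it, and GCGAGA, 7.5 bp from it, which overlap. These distances are coarse, since that summit is the midpoint of a call of 436 bp and the replicate summits were 44 bp apart.

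The eEF1A genes are closer copies. Their coding sequences match at 94.0% of 1389 bases and share 190 of 1360 runs of 30 bases. eef-1A.1 (WBGene00001168, III from 6970026 to 6971712, minus strand) had a peak from 6971855 to 6972311 with pooled signal 1499, rank 17. In the replicates its signal was 651, rank 19, and 849, rank 17. eef-1A.2 (WBGene00001169, X from 7823654 to 7825769, plus strand) had a peak from 7823086 to 7823521 with pooled signal 142, rank 220, and 67.3 and 74.8 in replicates 1 and 2, ranks 192 and 258. The eef-1A.1 peak was 10.6 times as strong in the pooled list, 9.67 times in replicate 1 and 11.4 times in replicate 2.

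Both eEF1A summits lay well upstream of the gene. The pooled summit of eef-1A.1, at 6972090, was 378 bp upstream of its 5′ end and that of eef-1A.2, at 7823304, was 350 bp upstream. The eef-1A.1 summit was nearer to another gene, 163 bp from the 5′ end of rfc-4, a subunit gene of the replication clamp loader on the opposite strand. It also lay 5 bp from the annotated microRNA gene cel-mir-5549, part of which is in the printed sequence. Which of these genes the peak belongs to cannot be told apart. At eef-1A.2 no other promoter window held the summit, and the nearest noncoding gene, R03G5.8, was 81 bp away. Of the 171 runs of 30 bases in the 200 bp centred on either summit, 0 occur elsewhere in the nuclear genome.

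eEF2 is encoded by eef-2 (WBGene00001167, I from 9163531 to 9166952, plus strand). Its peak from 9163321 to 9163715 had pooled signal 1100, and 515 and 590 in replicates 1 and 2. The rank was 25 in the pooled list and in each replicate list, the most even of the 8 genes. The summit at 9163520 was 11 bp upstream of the 5′ end and 254 bp from that of clsp-1, the claspin gene, on the other strand. The peak was 395 bp wide. Replicate 1 alone had another call in the promoter window, in an intron, with signal 46.9.

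The eEF1B genes had lower signal than iff-2, eef-1A.1 and eef-2, though eef-1G stood above eef-1A.2. eef-1G (WBGene00008920, V from 10965719 to 10967922, plus strand) had a narrow peak of 195 bp from 10965584 to 10965778 with pooled signal 238, rank 88. The replicates gave 105, rank 95, and 139, rank 83. The summit at 10965680 lay 39 bp upstream of the 5′ end and 141 bp from that of ctf-4, a replication fork gene read in the opposite direction. The reverse complement of ACGCAG in its printed sequence was centred 6.5 bp from the summit. The replicate summits were 43 bp apart, so this distance is coarse.

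eef-1B.1 (WBGene00018846, III from 7972382 to 7973386, minus strand) had its peak from 7973162 to 7973597, pooled signal 103 and rank 411. The replicates gave 46.5, rank 419, and 52.4, rank 573. The pooled summit at 7973380 lay in the 5′ UTR, 6 bp inside the gene, also within the noncoding gene F54H12.9 on the opposite strand. It was 337 bp from the 5′ end of aco-2, which encodes mitochondrial aconitase. In replicate 2 the summit stood outside eef-1B.1, 29 bp upstream of its 5′ end. A second, weak call upstream, with signal 30.3 in the pooled list and 31.4 in replicate 2, was nearer to aco-2.

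eef-1B.2 (WBGene00012768, IV from 15037331 to 15039551, plus strand) had no thresholded summit. Its strongest signal was 28.8 in the pooled list, rank 10103. That summit stood in a coding exon 1722 bp into the gene, and 563 bp from the 5′ end of hrpu-1. The strongest signal was 16.0 in replicate 1, rank 8262, and 18.5 in replicate 2, rank 10736. These strongest calls stood at different places in the 3 lists. Promoter windows held a call at 7 of the 8 genes in the replicate 1 list (28.1% of all genes), eef-1B.2 being without one, and at 8 in the replicate 2 list (28.3%). In the full pooled list 40.5% of all genes had a summit in the region searched, and in the replicate lists 46.3% and 46.4% did. eef-1B.1 was 3.56 times as strong as eef-1B.2 in the pooled list, 2.91 times in replicate 1 and 2.83 times in replicate 2. The eef-1B.2 values are near the medians of these lists, 32.2, 15.4 and 19.8, which include background calls. The ratios thus set a peak against calls at background level. Their coding sequences match at 73.7% of 623 aligned bases. The longest is 639 bp for eef-1B.1 and 1320 bp for eef-1B.2, so much of the latter is not aligned.

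**Figure D2:**
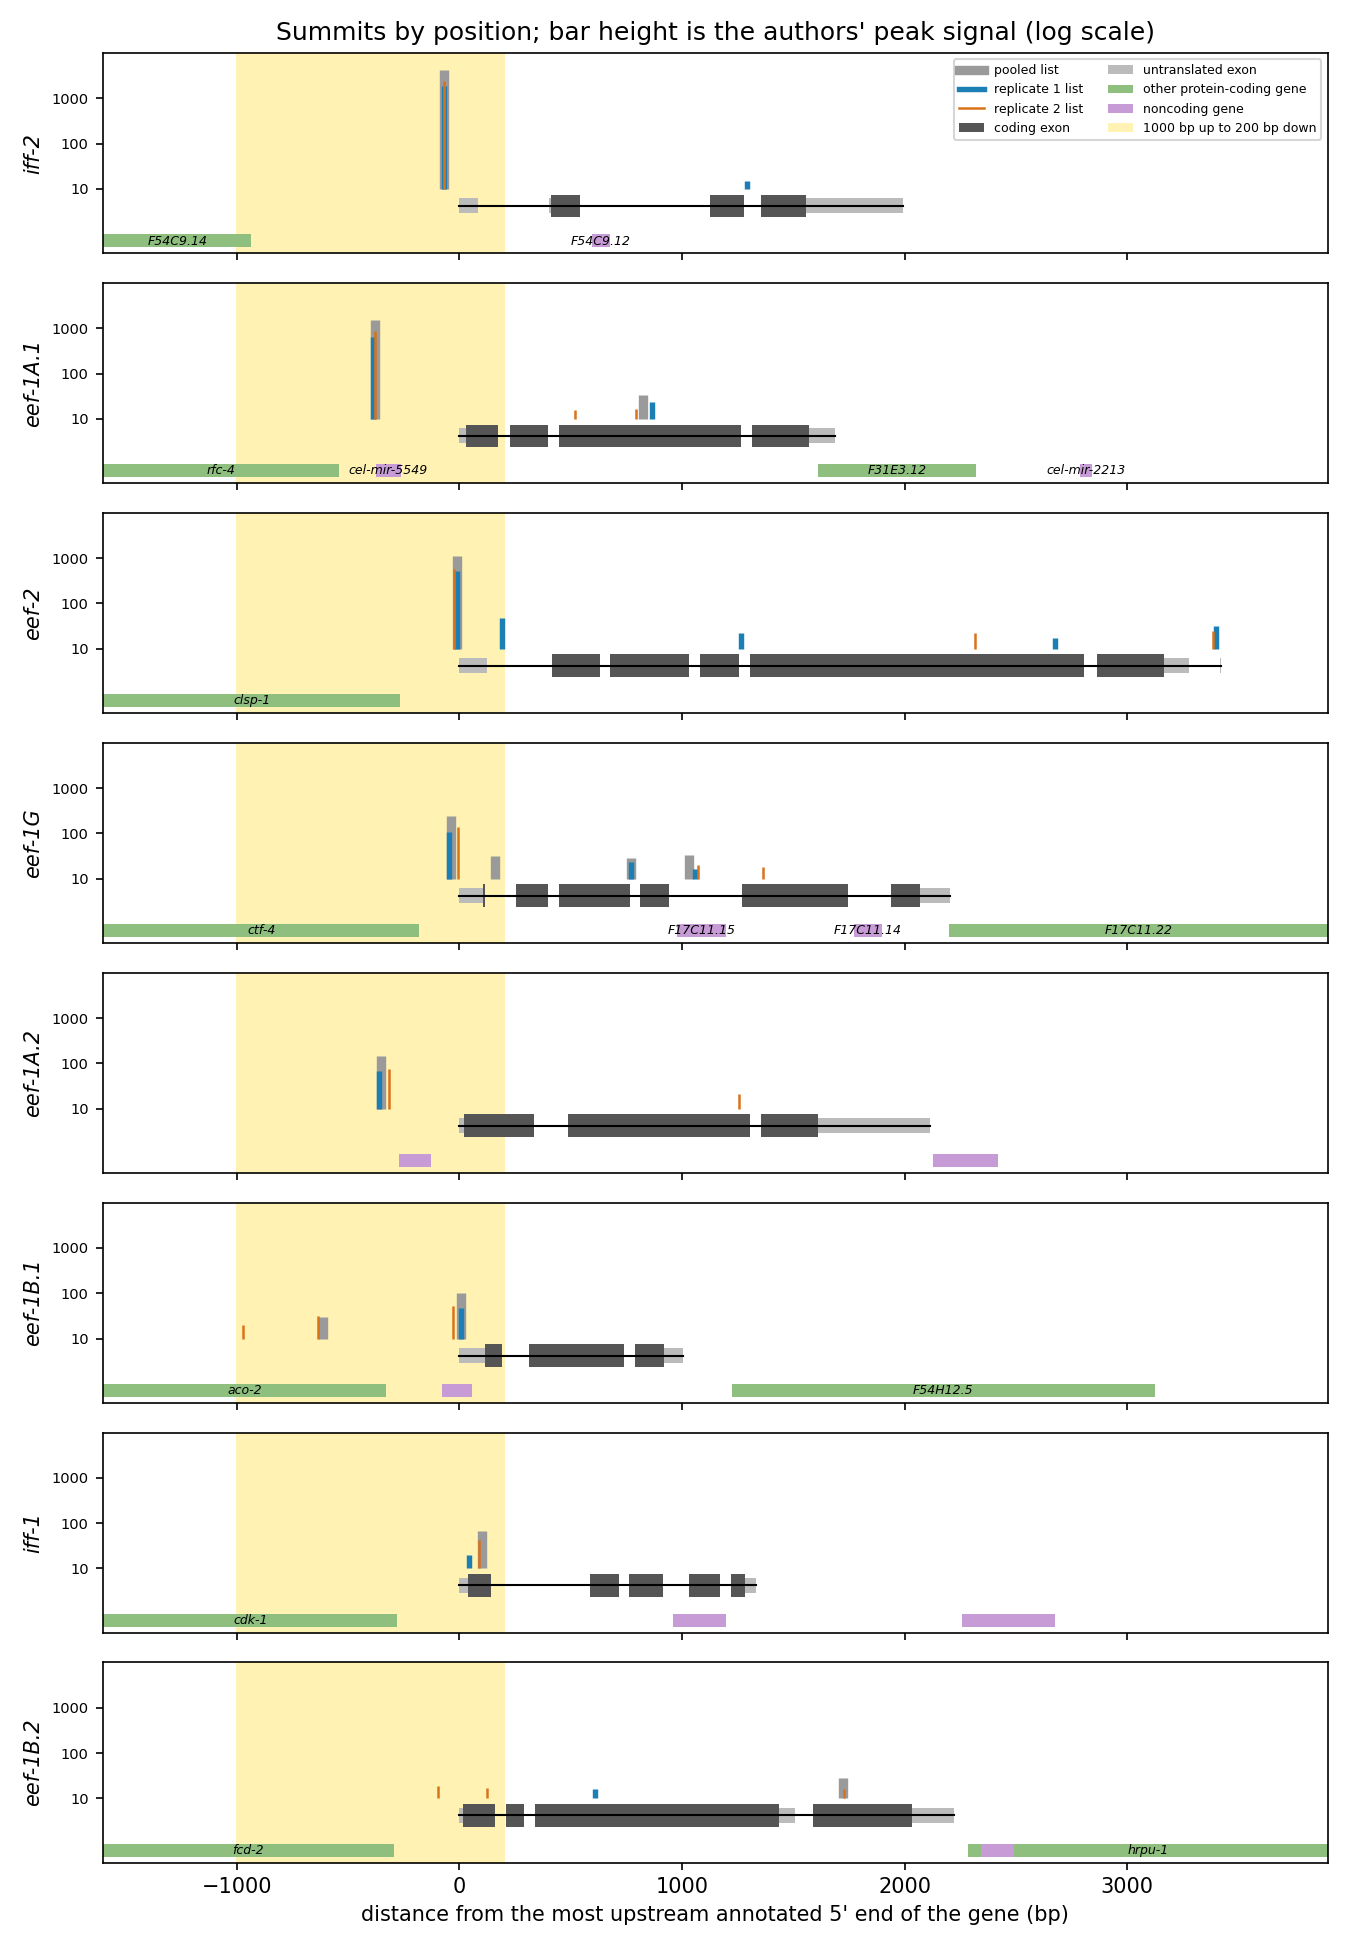
Summits of the 8 genes by distance in bp from the most upstream annotated 5′ end, with bar height showing the authors' signal (log scale) in the pooled, replicate 1 and replicate 2 lists. Shading marks 1000 bp upstream to 200 bp downstream, other genes are drawn below, and the tallest bar of each of the 6 genes with a thresholded peak stands in the shaded window, farthest upstream at eef-1A.1 (378 bp in the pooled list, 390 bp in replicate 1).

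Beyond the promoter windows there were 4 calls at these genes in the pooled list, 8 in replicate 1 and 8 in replicate 2, and none in the thresholded list. The strongest of them had a signal of 34.2 in the pooled list, in a coding exon of eef-1A.1. Others were at eef-2, 31.5 in replicate 1 and 24.5 in replicate 2, near the 3′ end, and at eef-1G, where an intron holding the small nucleolar RNA gene F17C11.15 had a pooled call of 33.4. This intron was called in both replicates too, with 16.5 and 20.1. These values at the intron are near the medians of the pooled and replicate lists, 32.2, 15.4 and 19.8, which include background calls. The recurrence is thus one of calls at background level. The coding exon calls at eef-1A.1 and eef-1A.2 are uncertain, since reads from shared stretches could come from either gene, and how the authors treated such reads is not given in the sources used here.

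Directly above iff-2 in rank stood the strongest nuclear peak, at hsr-9 and rps-19 with signal 4889. Directly below it was the peak at lin-54 and rpl-12 with 4010. Each of these peaks lay at a ribosomal protein gene and at another gene, and which it belongs to cannot be told apart. eef-1A.1 stood between Y82E9BR.3 (1664) and rpl-11.2 (1485), which encodes a large-subunit ribosomal protein. eef-2 followed the peak at ash-2 and Y17G7B.20 (1132) and preceded that at ndk-1, a nucleoside diphosphate kinase gene, and F25H2.6 (923). The peak above eef-1G was at Y39E4B.6 (238). Above eef-1A.2 was that of hsp-90, a chaperone gene, and C47E8.4 (142), and above eef-1B.1 that of snr-4, a splicing protein gene (103). The peaks directly below these last 3 genes were in no promoter window. Likeness here is nearness in rank and says nothing of shared function.

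**Figure D3:**
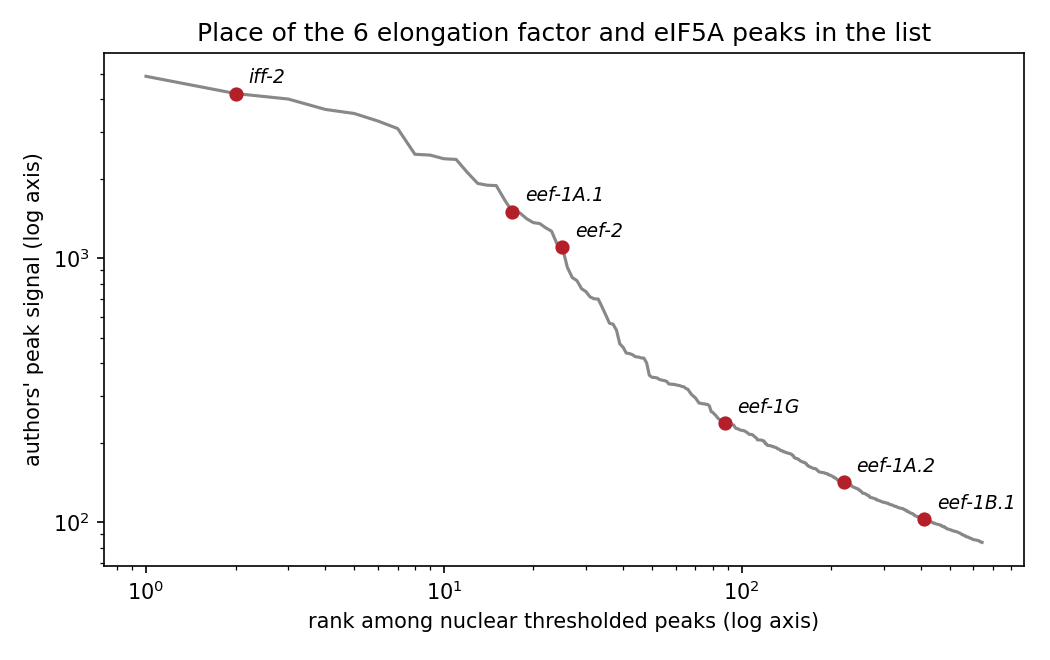
Authors' signal (log axis) against rank (log axis) for the 642 nuclear thresholded peaks, with the 6 thresholded elongation factor and eIF5A peaks as points. iff-2, eef-1A.1 and eef-2 stand among the 25 peaks with a signal above 1000, and eef-1B.1 at rank 411 is the lowest.

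The words marked in the sequences were searched on both strands. They were ACGCAG with GACGCA and with AGACGC, then ACGCGC and also ACACGC, then GAGCGC, and lastly CGAGAG with GCGAGA. The first 3 overlap one another, as do CGAGAG and GCGAGA. They had been picked for being frequent at these summits, so their presence is a description. In 200 bp centred on the strongest pooled summit, each of the 8 genes held at least 1 of them. At least 1 was also in 79.3% of all nuclear thresholded summits, and in 26.8% of the 200 bp upstream of all nuclear protein-coding genes. eef-1A.2, on X, held 6 of the words, the most of the 8 genes, and 5 of its 7 matches lay within 8 bp of each other in a run that begins at ACACGC. iff-2 held ACGCAG, centred 12.5 bp from its summit, and ACACGC, 23.5 bp from it. ACGCAG was in 26.0% of thresholded summit sequences and 5.87% of upstream sequences of the same length, and ACACGC in 18.4% and 4.42%.

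At most 2 matches were found at each gene other than eef-1A.2, iff-2 included. eef-2 held GAGCGC at 2 places, eef-1A.1 held CGAGAG at 2 places and eef-1G held ACGCAG at 2 places. eef-1B.1 held ACACGC and GCGAGA. The match closest to a summit was GAGCGC at eef-1B.2, centred 2.5 bp away, at a weak call in a coding exon. GAGCGC was in 19.2% of summit sequences and 3.61% of upstream sequences, and CGAGAG in 26.6% and 6.64%. The share of G and C was 41.5% at eef-1A.1 and 54.5% at eef-1A.2, against 46.0% ± 7.10 (SD over 642 summits). At iff-1 it was 36.0%, at percentile 7.94 of the thresholded summits, while sequences upstream of all genes had 33.7% ± 6.44 (SD over 19973 genes).

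Other genes of elongation, its regulation and termination, such as those for the eEF2 kinase, diphthamide and hypusine synthesis, mitochondrial factors and release factors, were looked at from a list. Of 22 symbols listed, 18 were found, and 1 of these (5.56%) had a thresholded summit in a promoter window, against 2.79% of all genes. This was abcf-2, an ABCF ATPase gene, with signal 2458. Its summit was nearest to ant-1.1, an adenine nucleotide translocator gene. In the pooled list 7 of 18 (38.9%) had a promoter summit, against 25.4% of all genes, with a median strongest signal of 32.8 against 36.0 over all genes with one. Among them, efk-1, the eEF2 kinase gene, had 27.8 and dhps-1, whose product starts hypusine synthesis on eIF5A, had 29.9.

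Genes of translation initiation with symbols beginning eif-, ife- or ifg- had 3 of 31 with a thresholded promoter summit (9.68%), against 2.79% of all genes. These were eif-3.C (215), eif-6 (115) and eif-3.E (84.2), and eif-6 shares its summit with the proteasome gene pbs-2. eif-2Bgamma (82.3) and eif-3.B (80.9) were just below the weakest thresholded peak. In the pooled list 18 of 31 (58.1%) had a promoter summit, against 25.4% of all genes, with a median strongest signal of 53.4 against 36.0. For the 7 elongation factor and eIF5A genes with a pooled promoter summit the median was 238, and since these were picked on signal it is not set against the other lists.

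**Figure D4:**
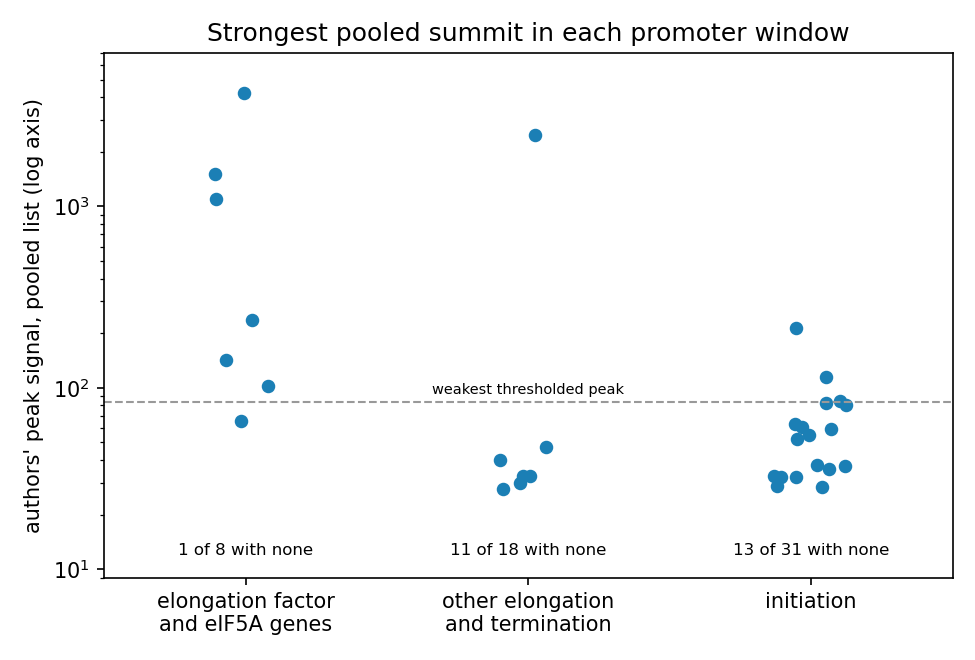
Strongest pooled summit in the promoter window of each gene, as the authors' signal (log axis), for the 8 elongation factor and eIF5A genes, 18 other genes of elongation and termination, and 31 initiation genes. Each point is 1 gene, genes with no summit are counted at the bottom, the dashed line is the weakest thresholded peak (83.8), and 6, 1 and 3 genes stand above it. The 8 genes were picked on signal, so their values are not set against those of the other lists.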

How the data were processed

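ChIP-seq had been run on 2 replicates of 1 group. The deposited files are peak lists without a header, 4 of them on ce11, in the narrowPeak format per the description file deposited with them. The authors' peak signal and −log10 q-value were used as deposited, to describe and rank peaks within a list. Aligner, peak caller, IDR threshold and read depth: not given in the sources used here. A linked control was not used here. Lists on ce10 were not used.

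Summits are the deposited start plus offset, written 1-based. Annotation was Ensembl release 115 for WBcel235, which has the coordinates of ce11, and sequence came from RefSeq. Promoter windows ran 1000 bp upstream to 200 bp downstream of every 5′ end. Words of 6 bases were searched in 200 bp. The genes, lists and words were chosen with earlier results of these data known, and no test was made. Named genes are the 8 genes, those sharing their summits, the peaks next in rank, and list members with a thresholded promoter summit. efk-1, dhps-1, eif-2Bgamma and eif-3.B were named after their values were seen. Alternatives covered peak lists, windows and rules that tie peaks to genes. Window and word counting was checked on planted data. Python 3.11.15, numpy 2.4.6, pandas 2.3.3 and matplotlib 3.10.9 were used.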

Additional observations from a re-analysis of the deposited data

How the results depend on the processing

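All 18 alternatives kept each count within 1.5 times its reported value, 15 of them planned and 3 chosen after seeing the data. This limit is loose, as a count of 6 of 8 could not rise past it. The count of paralogue sets that differ in rank, 3 of 3, was fixed in advance, since different peaks nearly always differ in rank. Among the 330 strongest peaks 5 of the 8 genes had a summit in the searched region (1.75% of all genes) and in a promoter window (1.57%), with eef-1B.1 lost. When a peak counted for the closest 5′ end alone, 5 had one (1.91%), as the eef-1A.1 peak went to rfc-4. The 660 strongest peaks of 1 replicate, as many as the thresholded list holds with mitochondrial peaks counted, gave 6 with either replicate left out. Among the 1320 strongest pooled peaks, a looser cut of the ranking behind the 330, 7 had one (6.2% of all genes), with iff-1 added. In all 3 paralogue sets the stronger gene was the same in each list. Dropping the ifa- symbols, which name intermediate filament genes, left the 3 bound initiation genes. No ifa- gene had a promoter summit in the pooled list, so that count could not change. No paired analysis was possible because there is a single group. With 2 replicates and unknown depth, no error can be put on a signal beyond its 2 values.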

Other observations

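The genes on the far side of these promoters were looked at after the peaks had been seen. Of the 6 thresholded summits, 5 also lay in the promoter window of another protein-coding gene on the opposite strand, and eef-1A.2 was the exception. Over the whole list, 396 of 642 nuclear summits lay in a promoter window, and 155 of these (39.1%) lay in windows of genes on opposite strands. The 6 were picked on signal and the difference was not tested. The other genes were F54C9.14 at iff-2, rfc-4 at eef-1A.1, clsp-1 at eef-2, ctf-4 at eef-1G and aco-2 at eef-1B.1.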
